A study of Sus scrofa with 6 samples.

Results

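The genes described here encode intracellular sensors of microbes and damage and the protease they activate: NLRP3, NOD1, NOD2, AIM2 and CASP1. They were chosen by name, as the probe sets of a porcine Affymetrix array whose annotated symbol is 1 of these 5. The annotation table used here gave 1 probe set for NLRP3 and 2 each for NOD1 and NOD2, so 3 of the 5 genes are described, of 13755 genes on the array with a symbol, through 5 of 47722 probe sets. AIM2 and CASP1 were not analysed here, since no probe set of the table carries either symbol. Blood mononuclear cells of 3 piglets (Large White x Landrace F1, 8 weeks old) had been frozen, thawed and sorted with antibodies to CD14 and CD163. CD163high denotes the CD14low-CD163high monocytes and CD163low the CD14high-CD163low monocytes. No treatment separated the groups, and the sort on both antigens is the comparison. Each population of each pig gave 1 array, so there were 3 CD163high and 3 CD163low arrays, and the 2 populations of a pig carry the same number.

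NLRP3 and AIM2 are nucleating receptors of inflammasomes. NLRP3 responds to ion fluxes and membrane damage, and in human and mouse AIM2 binds double-stranded DNA in the cytosol. Both recruit the adaptor PYCARD, which brings in pro-caspase-1, the product of CASP1. Active caspase-1 matures the precursors of interleukin-1 beta and interleukin-18 and cleaves gasdermin D, whose fragment forms pores in the membrane. NOD1 and NOD2 bind fragments of bacterial peptidoglycan and signal through the kinase RIPK2 to NF-kB. In human and mouse monocytes NF-kB activity raises the transcripts of NLRP3 and IL1B, a step called priming, so the transcript of a sensor says nothing of whether an inflammasome had formed.

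All levels are log2 signals of a probe set on an array that the authors had normalized, and differences are CD163high minus CD163low. Each array holds 69 probe sets named as background controls, and their mean log2 signal on the array is called its background. In pigs 1, 2 and 3 it came to 2.82, 2.97 and 3.67 on the CD163high arrays, against 3.29, 2.60 and 3.06 on the CD163low arrays. The precision is limited by there being only 3 arrays a group. Of 9 monocyte markers 6 were measured, and all but FCGR1A lay above the background on all 6 arrays, with LYZ at 10.37 ± 1.31 in CD163high and 10.40 ± 0.58 in CD163low monocytes (SD, n = 3 each). Markers of other cells were present too. The summed linear signal of 6 T cell markers spanned 447.7 to 2101.8 in CD163high and 426.4 to 2450.7 in CD163low monocytes, that of 5 B cell markers 471.8 to 1700.6 and 628.3 to 1719.9, and that of 6 NK cell markers 219.9 to 840.4 and 380.1 to 1059.9. The sum of 4 erythroid markers was highest in both populations of pig 2, at 2079.4 in CD163high and 1752.2 in CD163low monocytes, and at most 63.5 on the other arrays. Of 4 neutrophil markers measured, LTF lay under the background on all 6 arrays and MPO on 4, while CSF3R, which monocytes also express, made up most of a sum of 263.6 to 868.7 in CD163high and 534.7 to 1506.7 in CD163low monocytes. Within each of the 3 pigs the sums of the neutrophil, NK cell and platelet markers were lower in CD163high than in CD163low monocytes, the direction of the partners given as lower below. GNLY made up most of the NK cell sum. Of these markers CSF3R, GNLY, KLRB1, EOMES, ITGA2B, PPBP and TUBB1 were lower in all 3 pigs. The signs of MPO, MMP9, LTF, NCR1, KLRK1, PRF1, GP9 and GP1BA differed between pigs. Among B cell markers MS4A1, CD79A and CD79B were lower in all 3 pigs, BANK1 was higher in all 3, and PAX5 had mixed signs. The part of these cells in the values below was not tested. In such bulk samples fewer cells of a type and less RNA per cell cannot be told apart.

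No difference in NLRP3, NOD1 or NOD2 was detectable between the populations. The fit detects little, as CD163, an antigen of the sort, did not pass either. Its log2 difference was 2.03 ± 0.43 (SE), and its groups did not overlap. In limma's fit across all 47722 probe sets 0 of the 3 genes passed an adjusted p of 0.05, against 0% of all genes. By that fit 0 of the 3 also had an unadjusted p under 0.05, against 1.43% of genes that were lower and 1.84% that were higher in CD163high monocytes. The signals of the populations overlapped for all 5 probe sets, and groups did not overlap for 3.16% of genes in the lower and 3.02% in the higher direction. None of the 3 genes had the same sign in all 3 pigs, which 12.5% of genes had as lower and 10.5% as higher.

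NLRP3, the inflammasome sensor (probe set SNOWBALL_000645_st), lay well above the background of all 6 arrays. Its log2 signal was 6.56, 7.14 and 6.47 in CD163high monocytes of pigs 1, 2 and 3, against 6.68, 6.39 and 7.63 in CD163low monocytes. The groups overlapped, and both the lowest and the highest of the 6 values came from CD163low monocytes. Of the 69 background controls, all 69 were dimmer than NLRP3 on 4 arrays, 67 on CD163low of pig 1 and 57 on CD163high of pig 3. The mean was 6.72 ± 0.36 in CD163high and 6.90 ± 0.65 in CD163low monocytes (SD, n = 3 each), a log2 difference of -0.17 ± 0.37 (SE, limma adjusted p = 1), or 1.13-fold lower. The 95% interval of the difference ran from -1.08 to 0.73, and the fit cannot tell the values inside it from 0. Within pigs the differences were -0.12 in pig 1, 0.76 in pig 2 and -1.16 in pig 3. The pigs therefore spread over a wider range than the mean difference, and 53% of all genes had a difference at least as large as that of NLRP3. Without both arrays of pig 3 the NLRP3 difference was 0.32, and without CD163low of pig 3 alone it was 0.19.

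NOD1, the receptor for peptidoglycan fragments that carry diaminopimelic acid, was dim. Its brighter probe set (SNOWBALL_019757_s_st) had a log2 signal of 4.38, 4.50 and 4.85 in CD163high monocytes, against 4.69, 4.30 and 5.21 in CD163low monocytes of pigs 1, 2 and 3. Every value lay above the background of its array, but 45 to 56 of the 69 background controls were dimmer, so some controls exceeded it on each array. The populations overlapped, and in each population the highest value was that of pig 3. The means were 4.57 ± 0.24 in CD163high and 4.73 ± 0.45 in CD163low monocytes (SD, n = 3 each), a log2 difference of -0.16 ± 0.28 (SE, limma adjusted p = 1) with a 95% interval from -0.83 to 0.51. Within pigs the differences were -0.31, 0.19 and -0.36, and without CD163low of pig 3 the difference was 0.077. The second NOD1 probe set (SNOWBALL_019836_st) lay under the background on all 6 arrays, at 2.16, 2.02 and 2.88 in CD163high monocytes, against 3.14, 1.95 and 2.34 in CD163low monocytes. It was not well above background, so its difference of -0.13 ± 0.38 bears no size, and its sign in pig 3 (0.53) was opposite to that of the brighter probe set.

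NOD2, the receptor for muramyl dipeptide, had the lowest mean difference of the 3 genes, and it did not pass either. The log2 signal of its brighter probe set (SNOWBALL_021044_s_st) was 4.16, 4.67 and 5.44 in CD163high monocytes, against 5.25, 4.40 and 6.09 in CD163low monocytes of pigs 1, 2 and 3. The CD163high array of pig 3 exceeded the CD163low arrays of both other pigs, so the groups overlapped. The means were 4.76 ± 0.65 in CD163high and 5.25 ± 0.85 in CD163low monocytes (SD, n = 3 each), a log2 difference of -0.49 ± 0.51 (SE, limma adjusted p = 1), or 1.40-fold lower, with a 95% interval from -1.73 to 0.75. A difference of that size or larger was found in 15.8% of all genes. Within pigs the differences were -1.09 in pig 1, 0.27 in pig 2 and -0.65 in pig 3. The difference was -0.066 without CD163low of pig 3, -0.19 without pig 1 or its CD163high array, -0.83 without CD163high of pig 3, -0.87 without pig 2 and -0.92 without CD163low of pig 2.

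The second NOD2 probe set (SNOWBALL_021126_s_st) gave another order. It had 4.00, 3.99 and 4.96 in CD163high monocytes, against 4.24, 4.27 and 4.88 in CD163low monocytes. Its difference was -0.15 ± 0.34, and its signs were opposite to those of the brighter probe set in pig 2 (-0.28) and pig 3 (0.084). Both NOD2 probe sets placed the 2 arrays of pig 3 above those of the other pigs, and they shared the sign of the population difference in pig 1 only. Of the 69 background controls, 48 to 61 were dimmer than the brighter probe set and 45 to 56 were dimmer than the second, so NOD2 was dim as well.

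**Figure D1:**
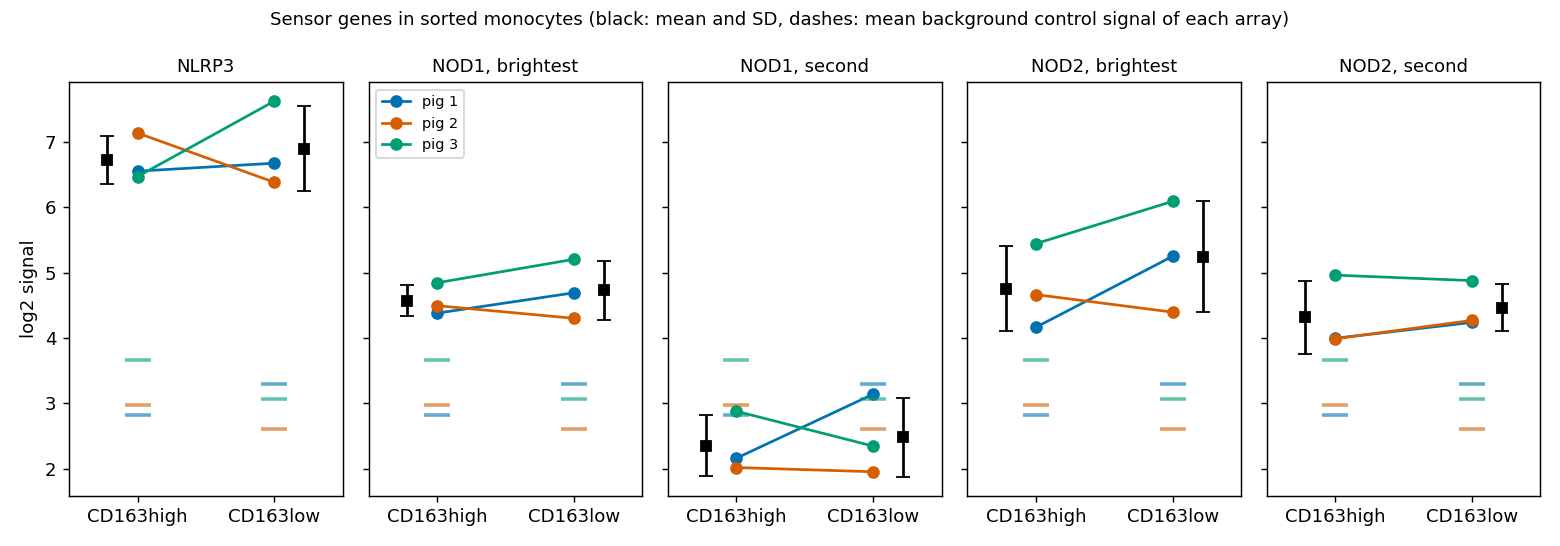
Log2 signal (vertical axis) of the 5 probe sets of NLRP3, NOD1 and NOD2 in CD163high and CD163low monocytes; coloured points are the arrays of pigs 1 to 3, joined within a pig, black squares with bars are the mean and SD of 3 arrays, and dashes are the mean background control signal of each array in the colour of its pig. For each of the 5 probe sets the lines of the pigs run in different directions, and all points of the second NOD1 probe set lie under the dash of their own array.

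The 3 sensors differed in where their variation lay. For the brighter NOD1 probe set 76.7% of the sum of squares over the 6 arrays lay between pigs, 6.73% between the populations and 16.6% in the remainder. For the brighter NOD2 probe set the shares were 68.2% between pigs and 13.6% between populations, and for the second NOD2 probe set 92.1% and 3.52%. NLRP3 had 16.9% between pigs and 3.94% between populations, and 79.2% was left over, which is the crossing of pig 2 against pig 3. The mean of the 2 arrays of a pig was highest in pig 3 for each of the 3 genes, at 7.05 for NLRP3, 5.03 for NOD1 and 5.77 for NOD2, against 6.62, 4.54 and 4.71 in pig 1 and 6.76, 4.40 and 4.53 in pig 2. With 3 pigs these shares are a description of these animals and arrays.

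The signals of the brighter NOD1 and NOD2 probe sets moved with the background of the arrays. The 3 arrays with the highest background were CD163high of pig 3, CD163low of pig 1 and CD163low of pig 3, and the brighter probe sets of both genes were highest on these same 3 arrays. The second NOD2 probe set was not, with 4.27 on CD163low of pig 2, the array with the lowest background, and 4.24 on CD163low of pig 1. NLRP3 did not have this order, as on the array with the highest background, CD163high of pig 3, it had the lowest signal but 1 of the 6. The background of each array was then subtracted, a scaling chosen after the data were seen. The brighter NOD2 probe set then stood at 1.34, 1.69 and 1.78 in CD163high monocytes, against 1.96, 1.79 and 3.03 in CD163low monocytes. On that scale it was lower in all 3 pigs (-0.62, -0.10 and -1.25). Its groups no longer overlapped, by a margin between 1.78 and 1.79, and its difference was -0.66 ± 0.38 (SE, limma adjusted p = 1.00). The second NOD2 probe set had 0.23, -0.65 and -0.52 in pigs 1, 2 and 3 on that scale, and its groups overlapped. In the lower direction groups did not overlap for 8.24% of all genes on that scale. The median difference of all genes was -0.18 on that scale and -0.013 as deposited. NLRP3 and NOD1 still overlapped, with differences of -0.34 and -0.33. With the background as a covariate the differences were -0.18 for NLRP3, -0.26 for NOD1 and -0.74 for NOD2, and none passed in limma (adjusted p = 0.924, 0.769 and 0.570). The part of the background in the spread of these genes was not tested beyond this.

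**Figure D2:**
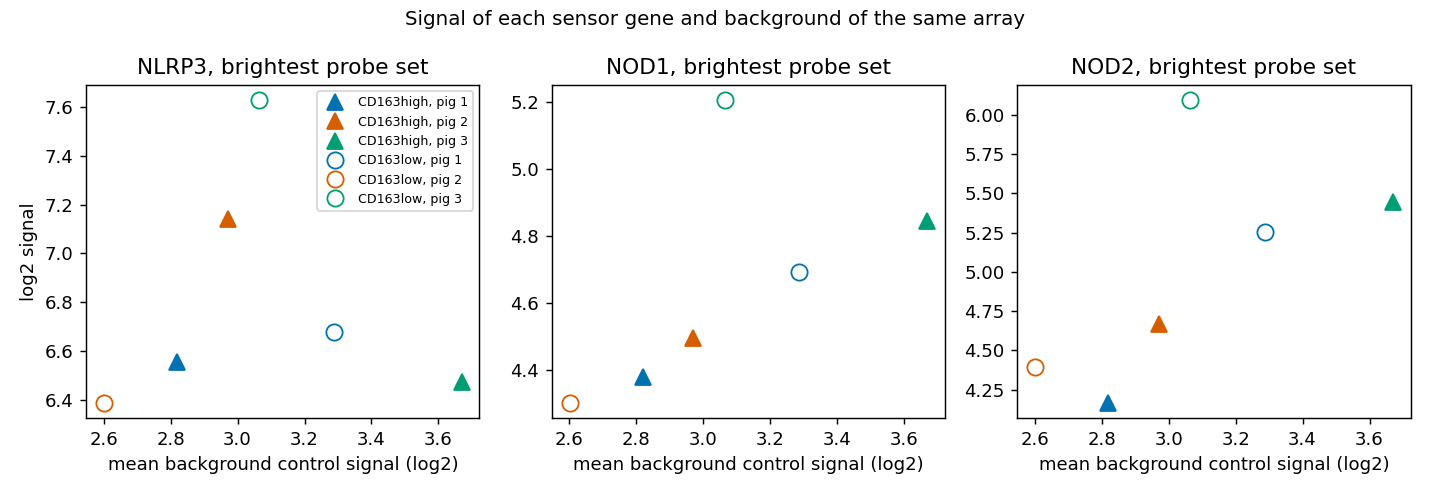
Log2 signal of the brightest probe set of NLRP3, NOD1 and NOD2 (vertical axes, each with its own range) against the mean log2 signal of 69 background controls on the same array (horizontal axis); filled triangles are CD163high and open circles CD163low arrays, coloured by pig. NOD1 and NOD2 are highest on the 3 arrays with a background of 3.06 or more, while NLRP3 is low (6.47) on the array with the highest background (3.67).

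The genes whose pattern over the 6 arrays was most like that of each sensor were found among 6877 other genes of at least median signal, by the root mean square difference of log2 signals after each gene was centred on its own mean. The patterns nearest to NLRP3 were those of SLA-11, a porcine MHC class I gene (0.12), ARPC1B, a subunit of the actin-nucleating Arp2/3 complex (0.12), TNFRSF1A, a receptor for tumour necrosis factor (0.15), and ZNF217 (0.17), where NLRP3 itself deviated by 0.44 from its mean. As in NLRP3, CD163high exceeded CD163low in pig 2 and lay under it in pig 3 for all 4. That follows from their choice by nearness to NLRP3 on these same arrays. The nearest to NOD1 were PLEKHG2 (0.060), KCTD11 (0.069), PCSK7 (0.072) and ISOC2 (0.078), where NOD1 deviated by 0.31. The nearest to NOD2 were LASP1, an actin-binding protein gene (0.13), RXFP4 (0.13), RUNX1, a transcription factor of blood cells (0.16), and TAF5L (0.17), where NOD2 deviated by 0.66. These distances rest on 6 arrays of 3 pigs, which all genes share along with the background of each array. Between the sensors the distance was 0.32 between NLRP3 and NOD1, 0.37 between NOD1 and NOD2 and 0.52 between NLRP3 and NOD2, and 0.40 between the 2 probe sets of NOD2. The median distance to the 6877 genes was 0.62 for NLRP3, 0.54 for NOD1 and 0.79 for NOD2.

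Partners of the sensors were taken from a list of 84 genes in 6 roles, of which 57 were measured and 27, among them PYCARD, RIPK2, NLRC4, NAIP and CASP4, were not analysed here. Of the 57, limma called 0 over all probe sets. At an unadjusted p under 0.05 in limma without a pig block 3 were lower (SLC15A2, IL18 and IL1R2) and 0 were higher. Of all genes 1.43% were lower and 1.84% higher by that fit. With the pig as a block IL1B, IL1A and NLRC3 were also lower at that threshold, and HSP90AB1 was higher (limma unadjusted p = 0.018, 0.046, 0.0079 and 0.0066). The block also raised the count over all probe sets, from 1235 to 1917 of 47722. Between pigs the sign differed for 44 of the 57 (77.2%), beside 77.1% of all genes. The groups did not overlap for 4 genes, all lower in CD163high monocytes, where 3.16% of all genes lay apart in that direction. The median difference of the 57 was -0.048, beside -0.013 over all 13755 genes.

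Among the products that caspase-1 matures, IL1B and IL18 each had the same sign in all 3 pigs on the deposited scale, where none of the 3 sensors did. IL1B, the precursor of interleukin-1 beta, had 8.68, 8.63 and 9.32 in CD163high monocytes, against 9.27, 9.53 and 11.19 in CD163low monocytes of pigs 1, 2 and 3. Its groups overlapped only through the CD163high array of pig 3, and its difference was -1.12 ± 0.53 (SE, limma adjusted p = 1). IL18 had 3.74, 3.99 and 2.93 in CD163high monocytes, against 4.97, 5.56 and 5.51 in CD163low monocytes, a difference of -1.79 ± 0.33 (SE, limma adjusted p = 1), and its CD163high value of pig 3 lay under the background of that array. IL1A, a cytokine that acts without cleavage by caspase-1, had -0.77 ± 0.64, and IL33 lay under the background on all 6 arrays. In pig 2 NLRP3 had a difference of 0.76, while IL1B and IL18 had -0.90 and -1.57. NOD2 had 0.27 in pig 2 by its brighter and -0.28 by its second probe set, and -0.10 and -0.65 with the background subtracted, so its direction in that pig was not settled. Whether the sensors and these cytokines differ in their response to the sort was not tested.

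**Figure D3:**
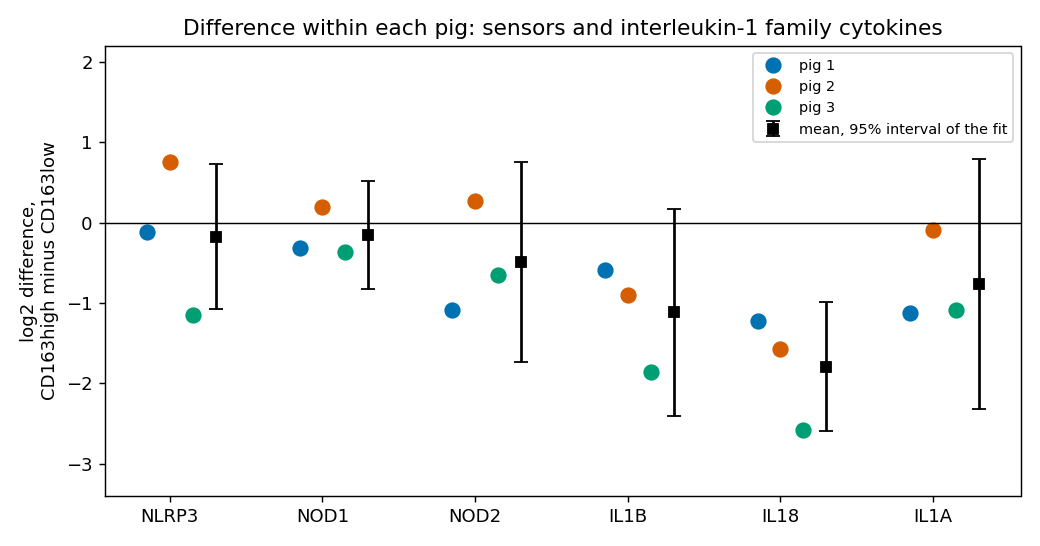
Log2 difference, CD163high minus CD163low (vertical axis), within each pig (coloured points) for the sensor genes NLRP3, NOD1 and NOD2 and the cytokine genes IL1B, IL18 and IL1A; black squares with bars are the mean difference and the 95% interval of the limma fit. The sensors have pig 2 above 0 and pigs 1 and 3 below 0, whereas IL1B, IL18 and IL1A are below 0 in all 3 pigs. The intervals come from the fit without a pig block, before adjustment over all probe sets, and there that of IL18 alone leaves out 0. With the pig as a block IL1B and IL1A also passed the unadjusted threshold used in the text, and the sensors did not.

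The other sensors were 12 genes. By their brightest probe sets the median difference was -0.16, with 3 of them lower throughout the 3 pigs and 1 higher. NLRC3, a NOD-like receptor that restrains signalling in T cells of mice, had 2.75, 4.19 and 3.33 in CD163high monocytes, against 3.57, 5.83 and 4.19 in CD163low monocytes, a difference of -1.11 ± 0.65 that did not pass. Its brightest probe set, which gave these values, lay under the background on 2 arrays. The second NLRC3 probe set had -0.18 ± 0.21, with -0.41, 0.12 and -0.24 in pigs 1, 2 and 3. Its sign in pig 2 was thus opposite. By its brightest probe set, but not by its second, NLRC3 was highest in both populations of pig 2. So were the sums of the T cell, B cell, NK cell and erythroid markers. In pig 1 the T cell sum was higher in CD163high (735.6 against 426.4) through CD2 (1.19). CD3D, CD3E, CD3G, LCK and CD28 were lower there (-1.38, -0.89, -0.11, -0.74 and -0.57), as was NLRC3 (-0.82). In pig 2 NLRC3 had -1.64, while CD3D, CD3E, LCK and CD28 were higher (0.53, 0.016, 0.36 and 1.05). CD2 and CD3G were lower in that pig (-0.40 and -0.080). In pig 3 NLRC3 had -0.86, and of the T cell markers only LCK was higher (0.29). The part of other cells in the NLRC3 values was not tested. NLRC5, an activator of MHC class I genes, had -0.45 ± 0.31, with -1.30 in pig 1 and near 0 in the other two (-0.062 and 0.015). NLRP12, which restrains NF-kB signalling in mouse myeloid cells, was higher in CD163high monocytes of all 3 pigs (0.13, 1.08 and 0.20) with a mean difference of 0.47 ± 0.35, but its 2 dimmer probe sets had the opposite sign. NLRP2, another member of the NLRP family and not on the partner list, was named after its values were seen, with -1.58, -0.19 and -0.86 in the 3 pigs and a mean difference of -0.88 ± 0.41 that did not pass. NLRP4, NLRP11 and NLRP13, also off the list, lay under the background on all 6 arrays, and NLRP5 did on 3. TMEM173, the adaptor STING of cytosolic DNA sensing, had 0.33 ± 0.31. CIITA, a member of the same protein family that acts as the master activator of MHC class II genes, was the 1 sensor whose groups did not overlap, with a difference of -0.15 ± 0.15, and its 2 dimmer probe sets had the opposite sign.

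The 16 adaptors and activators had a median difference of 0.17, and the 4 with the smallest p in limma went in both directions. SLC15A2, a transporter of di- and tripeptides that also carries muramyl dipeptide, had 3.76, 5.10 and 3.61 in CD163high monocytes, against 5.18, 6.90 and 6.38 in CD163low monocytes. Its groups did not overlap and its difference was -2.00 ± 0.57 (SE, limma adjusted p = 1), with the value of CD163high of pig 3 under the background of that array. HSP90AB1 and HSP90AA1, chaperones that hold NOD-like receptors in a form able to signal, had 1.10 ± 0.54 and 0.67 ± 0.45 and were higher in CD163high monocytes of all 3 pigs. ATG16L1, an autophagy protein that NOD2 recruits to the site of bacterial entry, had -0.58 ± 0.39. None of these 4 passed.

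Of the 6 inhibitors measured, IL1R2, the decoy receptor that captures interleukin-1, had 4.22, 5.80 and 5.39 in CD163high monocytes, against 6.00, 7.30 and 8.08 in CD163low monocytes. The groups did not overlap, and the difference was -1.99 ± 0.63 (SE, limma adjusted p = 1). TNFAIP3, a deubiquitinase that limits NF-kB and NLRP3 activity, had 0.92 ± 1.10 by its brightest probe set. That came from 1 low array, CD163low of pig 1 at 5.13, against 8.56 to 9.51 on the other 5. Its dimmer probe sets had differences of 0.053, 0.15 and 0.026, and the dimmest lay under the background on all 6 arrays. TRIM31, a ubiquitin ligase for NLRP3, had -0.30 ± 0.21, and CYLD, a deubiquitinase in the NOD2 pathway, had -0.20 ± 0.26.

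The 4 caspase and pore genes gave no common direction. GSDMD, whose cleaved product forms the pore, had 4.85, 4.93 and 5.32 in CD163high monocytes, against 4.97, 4.43 and 5.13 in CD163low monocytes, a difference of 0.19 ± 0.25. NINJ1, which drives the final rupture of the membrane, had -0.52 ± 0.39 and a second probe set with the opposite sign. CASP8, a caspase of cell death and an alternative activator of interleukin-1 beta, had 0.70 ± 1.08, with 2.83, 0.15 and -0.87 in pigs 1, 2 and 3. DFNA5, now called GSDME, had 0.058 ± 0.21 and lay under the background on 3 arrays. None passed.

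The 14 genes of the NF-kB arm had a median difference of -0.086, and the sign differed between pigs for 14 of 14, beside 77.1% of all genes. The kinase gene IKBKB had -0.48 ± 0.29, the transcription factor genes IRF8, NFKB2 and NFKB1 had -0.76 ± 0.69, -0.52 ± 0.54 and -0.23 ± 0.30, and none passed. Each of these 4 genes was higher in CD163high monocytes of pig 2 and lower in those of pigs 1 and 3, the order that NLRP3, NOD1 and NOD2 have by their brightest probe sets. Of the 14 genes 7 had this order and 7 did not, and 11% of all genes had it.

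**Figure D4:**
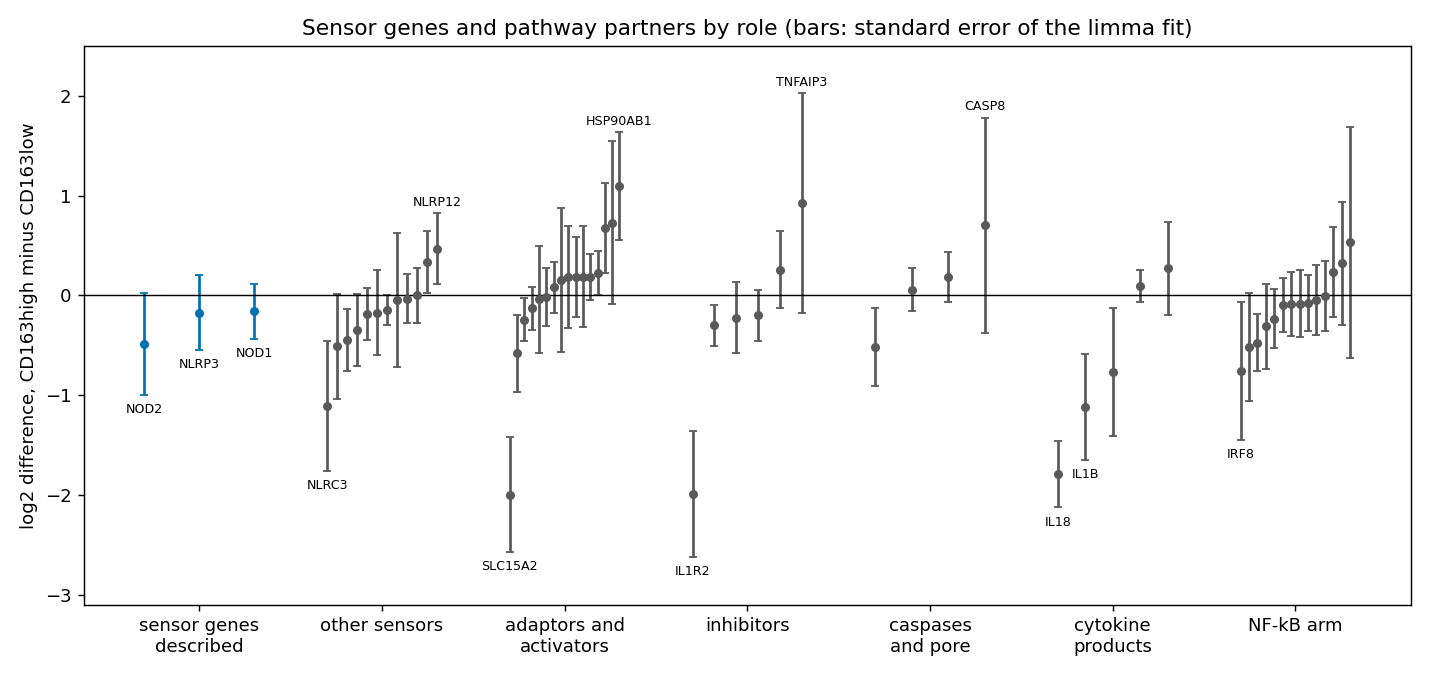
Log2 difference, CD163high minus CD163low (vertical axis), of NLRP3, NOD1 and NOD2 (blue) and of 57 pathway partners (grey) by role (horizontal axis), each point a gene by its brightest probe set and each bar the standard error of the limma fit. The sensor genes lie between -0.49 and -0.16, while SLC15A2 (-2.00), IL1R2 (-1.99) and IL18 (-1.79) have the lowest differences among the partners.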

How the data were processed

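Per the labels' protocols, each array received cDNA made from 500 ng of total RNA of a sorted population, of which 5.5 µg was biotinylated. The authors deposited probe-set intensity values, and the submitters' processing notes name RMA and limma with no version or role. From the values, the first 186 of 47845 rows were already log2 and the other 47659 were antilogs (their log2 a whole multiple of 0.0001 within 0.000001), so log2 was taken of those alone. RMA compresses dim signals, which makes small differences of dim genes uncertain. Without 123 array controls, limma 3.58.1 (R 4.3.3) was fitted to 47722 probe sets, two-sided, with no block and with Benjamini-Hochberg adjustment over all of them. A gene was represented by its brightest probe set over the 6 arrays. Symbols are those of the array's annotation (26426 probe sets with 1 symbol, 0 with several, 21296 with none; 13408 of 13755 symbols occur in current name tables). Coordinates are not printed, since no source names the build.

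Partners named with values are the 4 of each role with the smallest p, plus CIITA for its count. Members and lists were chosen with earlier results of these data known. Each array is tied to its pig by its label, so equal numbers pair arrays. Deviations from the group means correlated at -0.20, 0.67 and 0.26 in pigs 1, 2 and 3. Across pigs CD163high of pig 1 correlated at 0.24 with CD163low of pig 2. For CD163high of pig 3 and CD163low of pig 1 the correlation was 0.60, and the other pairings across pigs were negative. The main fit treats arrays of a pig as independent. Alternatives were a fixed or random pig effect, other variance models and weights, filters on dim probe sets, other scalings, the background as a covariate, the mean of a gene's probe sets, and omission of pigs or arrays. The fit was tested on simulated data.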

Additional observations from a re-analysis of the deposited data

How the results depend on the processing

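No alternative called any of the 3 sensors, any of the 57 partners or any probe set, so 0 calls at an adjusted p of 0.05 in limma stood in every fit, and 0 at 0.1. At an unadjusted p of 0.05 limma gave 1235 probe sets, and 1917 with the pig as a replicate block. With that block the differences stayed at -0.17, -0.16 and -0.49 for NLRP3, NOD1 and NOD2, with standard errors of 0.40, 0.21 and 0.31. The block changed no call at an adjusted p of 0.05. Of 21 alternatives, 15 gave another value for NLRP3 and 16 for NOD1 and NOD2, and of these 13, 15 and 16 kept the direction; the others cannot move a difference. NLRP3 turned to 0.32 without pig 3 and to 0.19 without CD163low of pig 3, and NOD1 to 0.077 without CD163low of pig 3. With any 1 pig or array omitted, the differences ran from -0.64 to 0.32 for NLRP3, from -0.37 to 0.077 for NOD1, from -0.92 to -0.066 for NOD2 and from -0.25 to 0.028 for the median of the partners. Array weights gave -0.75, -0.63 and -1.45, still not called (limma adjusted p = 0.279, 0.226 and 0.193), and the cause was not tested. The 4 arrays with the lowest background gave -0.16, -0.32 and -0.83. The mean of both probe sets gave -0.32 for NOD2. The other settings lay between these values. The dim signals of NOD1 and NOD2 limit the size of any difference that these arrays can show.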
